A study of Rattus norvegicus with 12 samples.

Results

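Microglia are the resident macrophages of the brain, and 36 genes that mark them or the wider family of blood-cell-derived phagocytes were followed across the 12 cortical libraries of the series. The genes were matched by symbol to a given list, which was drawn up with earlier results of these data known, so the choice was not independent of the values below. Of the 36 genes, 35 were among the 17268 genes of the count table, and Dock2 was not analysed here. They were divided by what each gene is known to mark into 11 homeostatic microglial genes, 4 complement genes and 21 pan-myeloid or pan-leukocyte genes. The homeostatic genes are used to mark the resting microglial state, though not all are limited to microglia, as astrocytes also carry Mertk. The other class is shared to differing degrees, gene by gene, between microglia and border macrophages, monocytes, neutrophils or other white blood cells. All animals were adult male Sprague Dawley rats, and each library is the mRNA of cerebral cortex. The Sham group had the surgery without a clot, and the other 3 groups had an embolus placed in the middle cerebral artery. The Model group received no further treatment, and the rt-PA group received recombinant tissue plasminogen activator, a clot-dissolving protease, 6 h after the stroke. The rt-PA+Acu group received the same late rt-PA plus Xingnao Kaiqiao acupuncture at the Shuigou and Neiguan acupoints at 2 h. There were 3 libraries in each group, and no group had acupuncture without rt-PA.

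A resting microglial cell surveys the tissue with motile processes, senses nucleotides through the P2Y12 receptor and depends on signals through the CSF1 receptor for survival. After injury such cells retract their processes, lose transcripts of the resting state and gain phagocytic and lysosomal ones, while monocytes and neutrophils can enter from the blood. C1q is the recognition molecule that starts the classical complement cascade, it is assembled from the C1qa, C1qb and C1qc chains, and in brain it comes mainly from microglia. In whole cortex, fewer cells of a type and less RNA per cell cannot be told apart.

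The promoters of 5 of these genes are shown as examples, chosen after the data were seen. C1qa and C1qb are chains of the same protein from neighbouring genes, with C1qc between them on chromosome 5, and C1qb but not C1qa passed the test after stroke. Ptprc and Cd53 code for pan-leukocyte membrane proteins that were higher after stroke, and P2ry13 codes for a homeostatic receptor that was lower. Each line gives the 250 bases before the annotated RefSeq start in the GRCr8 build, read 5′ to 3′ on the strand of the gene, and the positions follow after the last line. Capitals mark AGGAAGT or its reverse complement ACTTCCT, a core sequence that PU.1, the protein of Spi1, can bind.
C1qa: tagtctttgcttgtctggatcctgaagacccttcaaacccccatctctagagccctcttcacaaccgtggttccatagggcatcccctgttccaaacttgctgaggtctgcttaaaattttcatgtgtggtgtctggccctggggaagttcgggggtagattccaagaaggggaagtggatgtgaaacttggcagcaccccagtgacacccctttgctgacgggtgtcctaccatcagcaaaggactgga
C1qb: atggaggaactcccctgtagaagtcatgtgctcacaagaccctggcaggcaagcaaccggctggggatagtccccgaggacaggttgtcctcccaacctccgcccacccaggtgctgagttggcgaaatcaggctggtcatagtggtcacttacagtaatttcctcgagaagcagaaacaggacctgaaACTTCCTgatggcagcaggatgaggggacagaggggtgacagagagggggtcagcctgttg
Ptprc: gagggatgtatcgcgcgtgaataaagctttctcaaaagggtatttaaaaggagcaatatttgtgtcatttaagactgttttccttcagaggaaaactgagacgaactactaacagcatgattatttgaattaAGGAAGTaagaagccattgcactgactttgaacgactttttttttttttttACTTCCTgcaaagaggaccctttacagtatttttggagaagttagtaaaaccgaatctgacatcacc
Cd53: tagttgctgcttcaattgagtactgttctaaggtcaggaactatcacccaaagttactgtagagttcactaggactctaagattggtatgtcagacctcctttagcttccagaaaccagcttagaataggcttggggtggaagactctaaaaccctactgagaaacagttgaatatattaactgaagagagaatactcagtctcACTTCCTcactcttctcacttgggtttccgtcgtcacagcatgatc
P2ry13: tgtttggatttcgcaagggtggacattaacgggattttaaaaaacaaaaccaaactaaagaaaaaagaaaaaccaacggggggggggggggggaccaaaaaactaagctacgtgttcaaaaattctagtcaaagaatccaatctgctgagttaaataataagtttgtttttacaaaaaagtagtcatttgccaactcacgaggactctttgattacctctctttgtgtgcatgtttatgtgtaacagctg

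The 5 windows lie on the minus strand at chr5:154419934-154420183 for C1qa, chr5:154407828-154408077 for C1qb, chr13:52259747-52259996 for Ptprc, chr2:197087897-197088146 for Cd53 and chr2:145622785-145623034 for P2ry13. The C1qb and Cd53 windows held the motif 1 time, the Ptprc window 2 times, and the C1qa and P2ry13 windows did not hold it. RefSeq promoters were at hand for 25 of the 36 genes, and 6 of them (24.0%) held the motif on either strand: C1qb, Fcgr3a, Dock2, Ptprc, Cd53 and Cd37. Among all 33469 windows of the same length, 7.08% held it. Of the 6 members that held it, C1qb, Fcgr3a, Ptprc and Cd53 were higher in Model vs Sham, Cd37 was lower and Dock2 was not analysed. The calls of Fcgr3a and Cd37 were lost when single libraries were left out. Of all genes 27.3% were higher and 26.6% lower in that comparison. The calls of all genes that held the motif were not counted, so no link of motif and direction is read. Cd68 was also higher, and its window did not hold the motif. AGGAAGT was chosen for display after 11 sequences had been counted on both strands, and it was first counted in longer windows that also held the 50 bases after the start, where 8 of 25 members and 8.41% of all windows held it. In the 250 bases, GAGGAAGT and GGAAGT, which overlap AGGAAGT, were held by 3 of 25 members and 2.04% of all windows, and by 10 of 25 members and 19.2% of all windows, respectively. Of the other 8 sequences, TTCCNNGAA was held by 2 of 25 members and 4.26% of all windows, TGANTCA by 1 of 25 members and 6.34% of all windows, TATAAA by 1 of 25 members and 12.9% of all windows, GTGTCT by 3 of 25 members and 13.7% of all windows and a composite site of ETS and interferon regulatory factors by 1 of 25 members and 2.48% of all windows. No member window held GTCACGTG, a MEF2 site or an NF-kappaB site, which 1.63%, 0.125% and 0.0956% of all windows held. A match is a description of the letters and not evidence of binding. No window was at hand for P2ry12, Tmem119, Sall1, Hpgds, C1qc, Tyrobp, Fcer1g, Ly86, Aif1, Spi1 and Lyn.

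Libraries held 11678450 to 13616935 counts, so that 3 counts stood for 0.208 to 0.262 CPM, the count scaled to the library's total. All levels below are CPM after TMM scaling, in the order of replicates 1, 2 and 3. Model replicate 3 lay inside the Sham range at 10 genes, none of them followed here, at which the other 8 injured libraries lay outside it by over 1.5-fold, against 0 such genes for each other Model and rt-PA library and 31, 11 and 0 for the rt-PA+Acu libraries. Of the genes followed here, Siglec5 alone was among the 31 of rt-PA+Acu replicate 1, and none was among the 11 of replicate 2. The summed level of 10 oligodendrocyte markers ranged from 12900 to 19270 CPM in Sham, 1820 to 9244 in Model, 2863 to 12430 under rt-PA and 3544 to 22750 under rt-PA+Acu, so libraries of 1 injured group differed in white matter transcripts. A gene is said to have risen, fallen or changed where its adjusted p was under 0.05 in the quasi-likelihood test of edgeR, adjusted over all genes by Benjamini and Hochberg, and every adjusted p and standard error (SE) below comes from that test.

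Stroke moved most of these genes. In Model vs Sham 8 rose and 15 fell of 34 tested, where 54% of all genes passed, 27.3% upward and 26.6% downward. Of the homeostatic genes 9 of 10 tested fell, with a median log2 fold change of -1.41 against 0.01 over all genes. The complement genes had 2 that rose and 0 that fell of 4, with a median of 0.33, and the pan-myeloid genes split into 6 that rose and 6 that fell of 20, with a median of -0.33. Of the 34, 14 also changed by more than 1 on the log2 scale, where 21.5% of all genes did. Leaving out Model replicate 3 gave 6 that rose and 17 that fell.

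Adding acupuncture to late rt-PA was read from rt-PA+Acu against rt-PA, where 8 members rose and 8 fell of 34 tested, with 34.8% of all genes past the threshold, 17% upward and 17.7% downward. Homeostatic genes made up 5 of the 8 that rose and none of those that fell. Pan-myeloid genes made up 7 of the 8 that fell, and the other was C1qc. In rt-PA+Acu against Sham 2 rose and 5 fell of 35 tested, where 5.1% of all genes passed, 1.7% upward and 3.4% downward. This last count went from 7 to 2, 1 and 3 without Sham replicates 1, 2 and 3 and to 4 without rt-PA+Acu replicate 2. The count over all genes fell with it, from 651 to 191, 112 and 205 and to 331, so the loss was not particular to the members.

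The ADP receptor P2ry12, through which resting microglia sense injury, was the member with the smallest adjusted p in Model vs Sham. Its level was 69.8, 63.1 and 65.4 CPM in Sham, 6.41, 4.904 and 4.38 in Model, 3.33, 4.805 and 3.54 under rt-PA and 37.8, 40.2 and 19.5 under rt-PA+Acu. Every Sham library lay above every rt-PA+Acu library, and both groups lay above all 6 libraries of Model and rt-PA. P2ry12 fell in Model vs Sham (log2 fold change -3.64, SE 0.16, adjusted p = 4.31e-06) and rose with added acupuncture (log2 fold change 3.06, SE 0.32, adjusted p = 0.00133). Its mean in rt-PA+Acu was 32.5 ± 11.3 CPM (SD, n = 3) against 66.1 ± 3.39 CPM in Sham, and rt-PA+Acu replicate 3 was the lowest of its group. The related receptor P2ry13 followed the same order of groups, with 20.04, 17.8 and 13.01 CPM in Sham, 1.53, 1.44 and 0.826 in Model, 0.416, 0.789 and 0.442 under rt-PA and 12.4, 13.8 and 5.76 under rt-PA+Acu. All injured libraries without acupuncture were at or below 1.53 CPM, and all others were at or above 5.76 CPM. P2ry13 fell after stroke (log2 fold change -3.72, SE 0.29, adjusted p = 4e-05) and rose with added acupuncture (log2 fold change 4.25, SE 0.46, adjusted p = 0.00139). Both receptor genes overlap Med12l in the RefSeq annotation, and since the strand setting of the counting is not given in the sources used here, reads of the overlapping genes may have been counted for one another. Med12l itself had 508 to 810 counts in Sham, 459 to 529 in Model, 529 to 597 under rt-PA and 442 to 536 under rt-PA+Acu.

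Tmem119, a membrane protein used to tell microglia from blood-derived macrophages, was below Sham in every injured library. It measured 51.8, 55.95 and 53.9 CPM in Sham, 13.2, 14.6 and 14.2 in Model, 17.1, 12.98 and 11.3 under rt-PA and 23.6, 26.4 and 10.9 under rt-PA+Acu. Within rt-PA+Acu, replicates 1 and 2 lay above all Model and rt-PA libraries and replicate 3 below every other library. Tmem119 fell in Model vs Sham (log2 fold change -1.93, SE 0.10, adjusted p = 9.05e-06), and with added acupuncture its log2 fold change was 0.56 (SE 0.33, adjusted p = 0.22). Without rt-PA+Acu replicate 3 that difference was 0.87 with an adjusted p = 0.0151, so this call was decided by 1 library. Sall1, a transcription factor that maintains microglial identity, measured 50.9, 54.4 and 43.7 CPM in Sham, 19.6, 19.7 and 19.3 in Model, 22.5, 21.7 and 27.2 under rt-PA and 47.3, 42.1 and 56.9 under rt-PA+Acu. The 6 Model and rt-PA libraries lay below all 6 of Sham and rt-PA+Acu, and the ranges of the last 2 groups overlapped. Sall1 fell after stroke (log2 fold change -1.33, SE 0.12, adjusted p = 5.97e-05) and rose with added acupuncture (log2 fold change 1.03, SE 0.16, adjusted p = 0.00396). Against Sham, the log2 fold change of Sall1 in rt-PA+Acu was -0.03 (SE 0.14, adjusted p = 0.932).

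**Figure D1:**
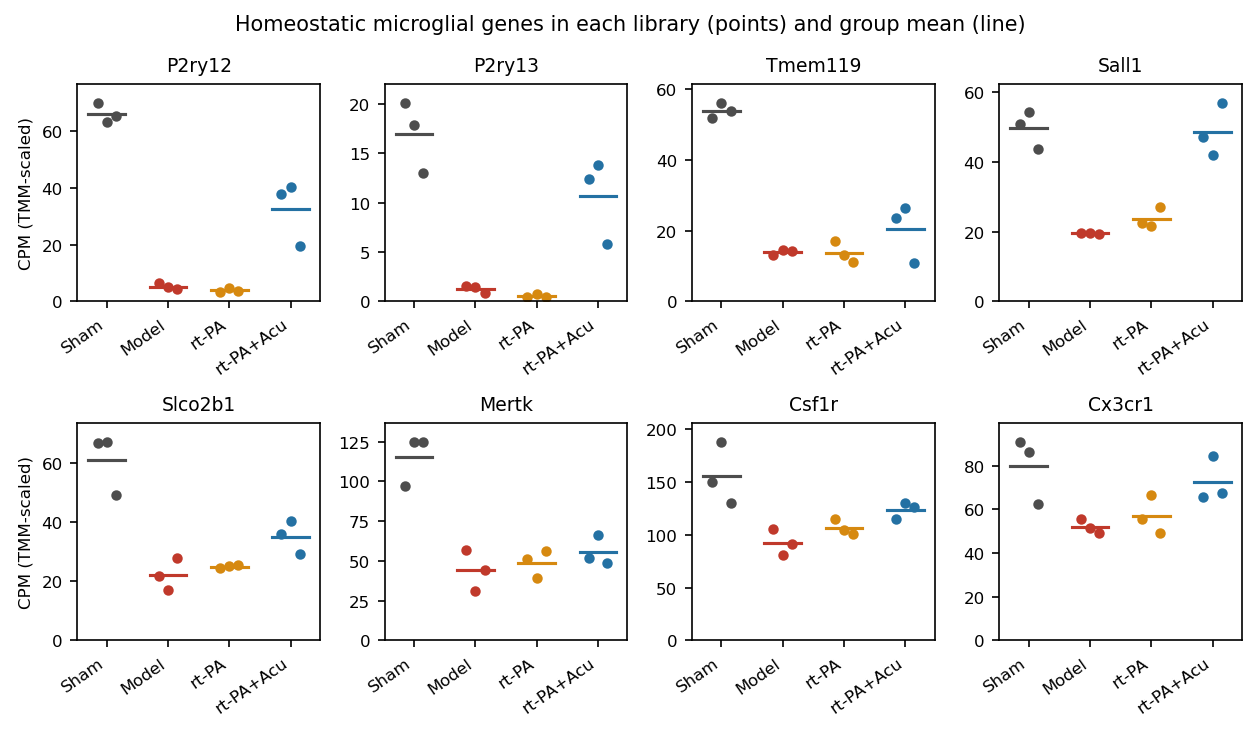
Level of 8 homeostatic microglial genes in each library, in CPM after TMM scaling on a linear axis from 0, by group. Points are the 3 libraries of a group and the line is their mean. P2ry12, P2ry13 and Sall1 sit low in Model and rt-PA and high in Sham and rt-PA+Acu, while Tmem119 and Mertk stay below Sham in all 3 injured groups.

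Csf1r is the receptor for CSF1 and IL-34 on which microglial survival depends, and it changed by a smaller log2 value than the receptors above. The libraries gave 150.1, 187 and 129.8 CPM in Sham, 106, 80.6 and 91.2 in Model, 115, 105 and 101 under rt-PA and 115, 129.9 and 126 under rt-PA+Acu. Each Model and rt-PA library lay below each Sham library, and Csf1r fell in Model vs Sham (log2 fold change -0.74, SE 0.15, adjusted p = 0.00405). With added acupuncture the log2 fold change of Csf1r was 0.21 (SE 0.10, adjusted p = 0.151). Cx3cr1, the receptor for the neuronal chemokine fractalkine, gave 90.6, 86.3 and 62.3 CPM in Sham, 55.3, 51.2 and 49.1 in Model, 55.5, 66.5 and 49.1 under rt-PA and 65.5, 84.3 and 67.5 under rt-PA+Acu. It fell in Model vs Sham (log2 fold change -0.61, SE 0.14, adjusted p = 0.00778), and with added acupuncture its log2 fold change was 0.34 (SE 0.15, adjusted p = 0.119). Neither gene passed in rt-PA+Acu against Sham, where the log2 fold changes were -0.33 (SE 0.14, adjusted p = 0.203) for Csf1r and -0.14 (SE 0.16, adjusted p = 0.649) for Cx3cr1.

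Mertk, a receptor tyrosine kinase for the clearance of dying cells that astrocytes also carry, gave 96.8, 124 and 124 CPM in Sham, 56.9, 30.9 and 44.03 in Model, 51.3, 38.9 and 56.4 under rt-PA and 51.7, 66.3 and 48.7 under rt-PA+Acu. All injured libraries lay below Sham, and it fell in Model vs Sham (log2 fold change -1.38, SE 0.21, adjusted p = 0.000883). With added acupuncture the log2 fold change of Mertk was 0.18 (SE 0.18, adjusted p = 0.452), and it stayed lower in rt-PA+Acu against Sham (log2 fold change -1.05, SE 0.15, adjusted p = 0.0105), a call lost without Sham replicate 2 (adjusted p = 0.0643). The organic anion transporter Slco2b1 gave 66.8, 67.05 and 49.2 CPM in Sham, 21.8, 17.1 and 27.9 in Model, 24.5, 25.03 and 25.4 under rt-PA and 35.9, 40.3 and 29.1 under rt-PA+Acu. Sham was highest and rt-PA+Acu was intermediate, without overlap with Sham or rt-PA. Slco2b1 fell after stroke (log2 fold change -1.45, SE 0.20, adjusted p = 0.000474) and rose with added acupuncture (log2 fold change 0.49, SE 0.14, adjusted p = 0.0338), where the call was lost with library size alone (adjusted p = 0.0576) and without any 1 of the 3 rt-PA libraries or without rt-PA+Acu replicate 1 or 2 (adjusted p = 0.101, 0.0736, 0.0864, 0.0917 and 0.125).

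By the mean over the 12 libraries the least abundant homeostatic genes were Crybb1, Olfml3 and Hpgds. Crybb1, a crystallin gene of the microglial signature, summed to 105 counts in Sham, 8 in Model, 4 under rt-PA and 53 under rt-PA+Acu. Its level was 13.2 times higher in Sham than in Model (95% counting interval 6.45 to 31.3) and 15.1 times higher with added acupuncture than under rt-PA alone (5.58 to 57.6), intervals that cover counting error only, and its adjusted p was 0.00163 and 0.0052. Olfml3, a secreted glycoprotein, gave 3.31, 3.98 and 3.84 CPM in Sham, 2.59, 8.37 and 1.98 in Model, 8.46, 1.94 and 9.502 under rt-PA and 5.303, 4.096 and 4.27 under rt-PA+Acu. Its values varied widely inside Model and rt-PA, and it passed in none of the 6 comparisons, with a log2 fold change of 0.22 (SE 0.51, adjusted p = 0.737) in Model vs Sham. Without rt-PA replicate 2 it passed in rt-PA vs Sham (adjusted p = 0.00228) and with added acupuncture (adjusted p = 0.0269). Hpgds, a prostaglandin D synthase, was at or below 1.38 CPM in all libraries and was tested in rt-PA+Acu against Sham alone, where its log2 fold change was -0.23 (SE 0.51, adjusted p = 0.823).

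Counts of members set against each other inside a library are unaffected by library scaling. The ratio of P2ry12 to Csf1r counts was 0.465, 0.337 and 0.504 in Sham, 0.0606, 0.0609 and 0.0480 in Model, 0.0290, 0.0459 and 0.0351 under rt-PA and 0.329, 0.309 and 0.155 under rt-PA+Acu. Sham and rt-PA+Acu lay above both other groups without overlap. The ratio of Tmem119 to Csf1r counts was 0.345, 0.299 and 0.415 in Sham, 0.125, 0.182 and 0.156 in Model, 0.149, 0.124 and 0.112 under rt-PA and 0.206, 0.203 and 0.0870 under rt-PA+Acu, where replicates 1 and 2 lay above and replicate 3 below the Model and rt-PA libraries. The ratio of Ptprc, the pan-leukocyte antigen CD45, to Csf1r was 0.0705, 0.0535 and 0.0659 in Sham, 0.157, 0.227 and 0.261 in Model, 0.475, 0.430 and 0.292 under rt-PA and 0.105, 0.0959 and 0.124 under rt-PA+Acu. It therefore ran opposite to P2ry12, lowest in Sham and highest in rt-PA. These ratios are descriptions without a test.

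**Figure D2:**
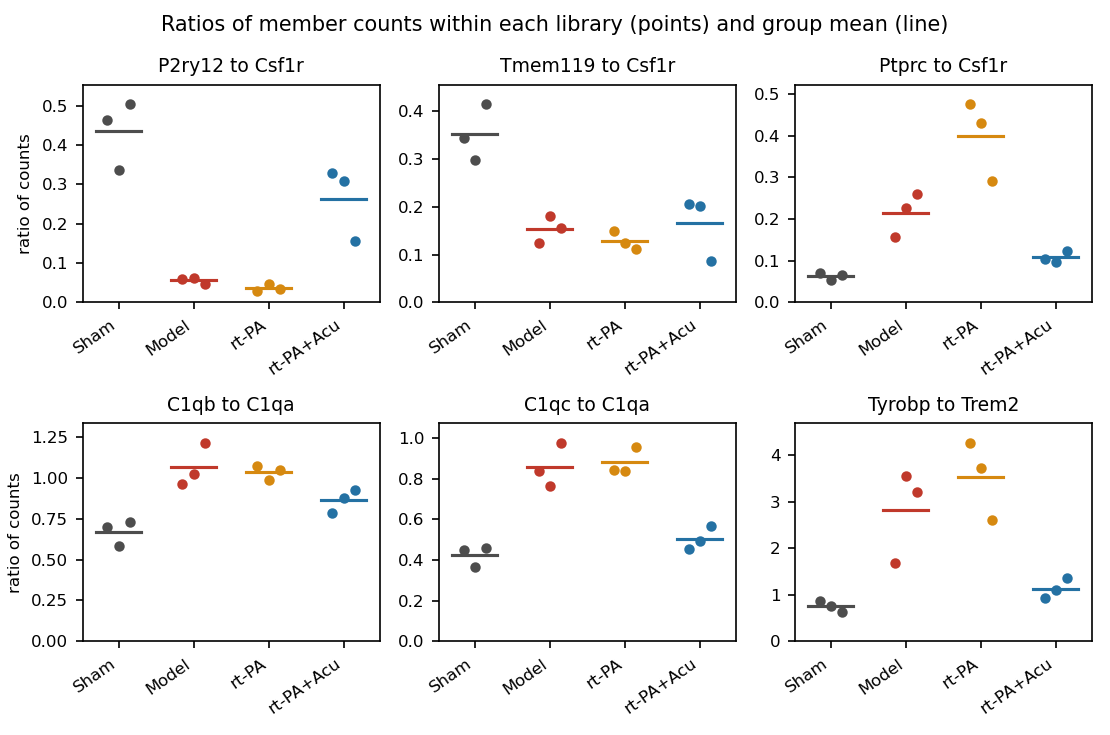
Ratio of the counts of 2 members within each library, on linear axes from 0, for the 4 groups. Points are libraries and the line is the group mean. P2ry12 to Csf1r is high in Sham and rt-PA+Acu and low in Model and rt-PA, while Ptprc to Csf1r, C1qc to C1qa and Tyrobp to Trem2 are low in Sham and high in Model and rt-PA.

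The 3 chains of C1q gave different values after stroke. C1qa gave 54.4, 92 and 64.02 CPM in Sham, 74.5, 56.7 and 74.2 in Model, 60.2, 73.4 and 64.7 under rt-PA and 64.1, 80.9 and 71.9 under rt-PA+Acu. Its 4 groups overlapped, and the log2 fold change was -0.02 (SE 0.20, adjusted p = 0.926) in Model vs Sham. C1qb gave 38.1, 53.7 and 46.6 CPM in Sham, 71.7, 58 and 89.5 in Model, 64.2, 72.4 and 67.6 under rt-PA and 50.2, 71.1 and 66.4 under rt-PA+Acu. The lowest Model library lay just above the highest Sham library, and C1qb rose in Model vs Sham (log2 fold change 0.67, SE 0.18, adjusted p = 0.0126). C1qc gave 24.3, 33.7 and 29.5 CPM in Sham, 62.5, 43.3 and 72.3 in Model, 50.8, 61.5 and 61.95 under rt-PA and 29.1, 39.9 and 40.7 under rt-PA+Acu. Model and rt-PA lay above Sham and rt-PA+Acu without overlap, so that C1qc rose in Model vs Sham (log2 fold change 1.03, SE 0.20, adjusted p = 0.00272) and fell with added acupuncture (log2 fold change -0.67, SE 0.16, adjusted p = 0.0175). The last call was lost without rt-PA replicate 3 (adjusted p = 0.0612). With added acupuncture the log2 fold change was 0.13 (SE 0.13, adjusted p = 0.464) for C1qa and -0.12 (SE 0.15, adjusted p = 0.545) for C1qb.

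Within a library the ratio of C1qc to C1qa counts was 0.447, 0.366 and 0.461 in Sham and 0.838, 0.763 and 0.974 in Model, with 0.843, 0.839 and 0.958 under rt-PA and 0.455, 0.494 and 0.566 under rt-PA+Acu. The Model and rt-PA ratios lay above all those of Sham and rt-PA+Acu. The ratio of C1qb to C1qa was 0.700, 0.583 and 0.729 in Sham, 0.962, 1.02 and 1.21 in Model, 1.07, 0.986 and 1.05 under rt-PA and 0.784, 0.879 and 0.923 under rt-PA+Acu, so rt-PA+Acu fell between Sham and the other injured groups. The ratios show unequal change of the chains and do not say which chain was steady.

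C3, the central complement protein cleaved by the cascade that C1q starts, took another course and was highest in rt-PA+Acu. It measured 6.47, 8.27 and 6.55 CPM in Sham, 3.13, 5.75 and 9.09 in Model, 24.6, 10.3 and 11.6 under rt-PA and 26.9, 29.02 and 22.3 under rt-PA+Acu. Model overlapped Sham, rt-PA lay above both, with replicate 1 far above its group, and rt-PA+Acu overlapped rt-PA replicate 1. The log2 fold change of C3 was -0.24 (SE 0.35, adjusted p = 0.591) in Model vs Sham. C3 rose in rt-PA+Acu against Sham (log2 fold change 1.87, SE 0.17, adjusted p = 0.00239) and in rt-PA+Acu against Model (log2 fold change 2.12, SE 0.34, adjusted p = 0.00401). With added acupuncture its log2 fold change was 0.75 (SE 0.33, adjusted p = 0.113), and without rt-PA replicate 1 it was 1.25 with an adjusted p = 0.0106. C3 also rose in rt-PA vs Sham (log2 fold change 1.11, SE 0.34, adjusted p = 0.0242), a call lost without Sham replicate 1 or 3 (adjusted p = 0.0757 and 0.0772). Astrocytes and endothelial cells can also make C3.

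**Figure D3:**
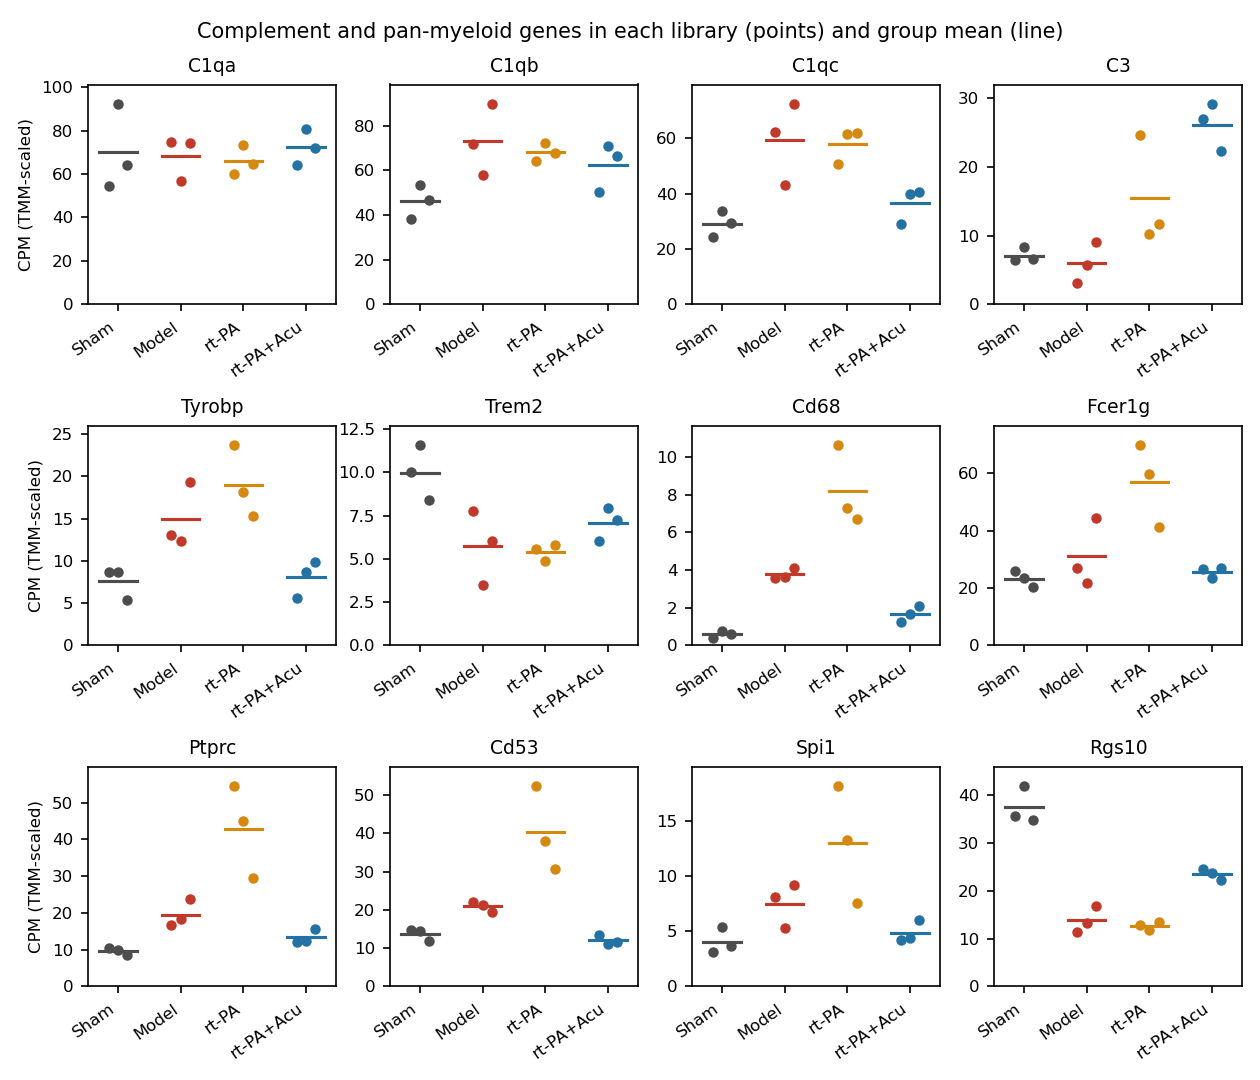
Level of the 4 complement genes and 8 pan-myeloid genes in each library, in CPM after TMM scaling on linear axes from 0, for the 4 groups. Points are libraries and the line is the group mean. C1qc is high in Model and rt-PA while C1qa overlaps across the groups, C3 is highest in rt-PA+Acu, and Cd68, Ptprc, Cd53, Tyrobp and Fcer1g have their highest mean in rt-PA and a lower one in rt-PA+Acu.

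Among the 7 pan-myeloid receptors and adaptors 2 rose and 1 fell in Model vs Sham, where 54% of all genes passed. Tyrobp, the DAP12 adaptor through which TREM2 and related receptors signal, gave 8.65, 8.73 and 5.33 CPM in Sham, 13.1, 12.3 and 19.3 in Model, 23.6, 18.1 and 15.2 under rt-PA and 5.64, 8.71 and 9.88 under rt-PA+Acu. Model and rt-PA lay above Sham, and rt-PA+Acu overlapped Sham. Tyrobp rose after stroke (log2 fold change 0.98, SE 0.26, adjusted p = 0.0119) and fell with added acupuncture (log2 fold change -1.23, SE 0.26, adjusted p = 0.011). Trem2, its lipid-sensing receptor partner, gave 10.02, 11.6 and 8.38 CPM in Sham, 7.78, 3.47 and 6.03 in Model, 5.55, 4.88 and 5.82 under rt-PA and 6.06, 7.93 and 7.26 under rt-PA+Acu, and all 9 injured libraries lay below Sham. The log2 fold change of Trem2 was -0.78 (SE 0.30, adjusted p = 0.0536) in Model vs Sham, where it passed with DESeq2 (adjusted p = 0.0353), with at least 10 counts asked of every library (adjusted p = 0.0498), in 1 fit over the 12 libraries (adjusted p = 0.024) and without Model replicate 1 (adjusted p = 0.0181), and 0.39 (SE 0.21, adjusted p = 0.188) with added acupuncture. It fell in rt-PA vs Sham (log2 fold change -0.90, SE 0.19, adjusted p = 0.00534). The ratio of Tyrobp to Trem2 counts was 0.863, 0.755 and 0.635 in Sham, 1.68, 3.56 and 3.21 in Model, 4.26, 3.72 and 2.62 under rt-PA and 0.931, 1.1 and 1.36 under rt-PA+Acu.

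Fcer1g, the signalling chain shared by Fc receptors, gave 26.1, 23.4 and 20.4 CPM in Sham, 27.01, 21.6 and 44.6 in Model, 69.7, 59.7 and 41.2 under rt-PA and 26.6, 23.4 and 26.9 under rt-PA+Acu. The rt-PA libraries 1 and 2 were the highest, and Model overlapped Sham. In Model vs Sham its log2 fold change was 0.42 (SE 0.25, adjusted p = 0.184), and it fell with added acupuncture (log2 fold change -1.15, SE 0.20, adjusted p = 0.00558). Fcgr3a, a low-affinity receptor for IgG, gave 2.18, 2.37 and 1.31 CPM in Sham, 3.21, 3.38 and 5.04 in Model, 5.34, 10.7 and 4.49 under rt-PA and 6.23, 4.79 and 11.2 under rt-PA+Acu. It rose in Model vs Sham (log2 fold change 0.99, SE 0.34, adjusted p = 0.0388), a call lost in 1 fit over the 12 libraries (adjusted p = 0.0759) and without any 1 Sham library or Model replicate 2 or 3 (adjusted p = 0.0769, 0.0609, 0.122, 0.063 and 0.107). Its level overlapped between rt-PA+Acu and rt-PA, where the log2 fold change was 0.12 (SE 0.43, adjusted p = 0.847). Genes of this receptor family are close copies, so the share of reads counted for Fcgr3a is uncertain.

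Siglec5 and Cd33 are sialic-acid-binding inhibitory receptors of one family with related sequences. Siglec5 gave 9.29, 15.5 and 6.72 CPM in Sham, 1.53, 0.423 and 2.06 in Model, 1.25, 1.36 and 0.663 under rt-PA and 7.83, 3.57 and 1.42 under rt-PA+Acu. It fell in Model vs Sham (log2 fold change -2.95, SE 0.51, adjusted p = 0.00158) and rose with added acupuncture (log2 fold change 1.95, SE 0.63, adjusted p = 0.0465), the latter lost with library size alone (adjusted p = 0.0507), without any 1 of the 3 rt-PA libraries (adjusted p = 0.107, 0.0783 and 0.135) or without rt-PA+Acu replicate 1 or 2 (adjusted p = 0.165 and 0.0902). It was low in Model and rt-PA, as the homeostatic receptors were, and spread widely inside rt-PA+Acu. Cd33 gave 8.97, 9.19 and 5.42 CPM in Sham, 5.72, 4.99 and 5.04 in Model, 9.36, 8.96 and 7.14 under rt-PA and 7.49, 8.45 and 9.06 under rt-PA+Acu, with a log2 fold change of -0.57 (SE 0.25, adjusted p = 0.0853) in Model vs Sham, where it passed in 1 fit over the 12 libraries (adjusted p = 0.0432) and without Sham replicate 3 (adjusted p = 0.0249), and -0.03 (SE 0.19, adjusted p = 0.926) with added acupuncture. Ly86, the MD-1 partner of a Toll-like receptor homologue, gave 2.67, 2.22 and 1.14 CPM in Sham, 2.06, 1.61 and 3.39 in Model, 2.29, 3.94 and 2.799 under rt-PA and 3.45, 4.096 and 6.14 under rt-PA+Acu. It passed in none of the 6 comparisons, except in rt-PA+Acu against Model once Model replicate 3 was left out (adjusted p = 0.0448), and its log2 fold change was 0.23 (SE 0.43, adjusted p = 0.674) in Model vs Sham.

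The 4 phagocytic, lysosomal and cytoskeletal genes split. Cd68, a lysosomal glycoprotein of active phagocytes, gave 0.404, 0.765 and 0.611 CPM in Sham, 3.59, 3.64 and 4.13 in Model, 10.6, 7.32 and 6.703 under rt-PA and 1.26, 1.66 and 2.096 under rt-PA+Acu. All 4 groups were separate, in the order Sham, rt-PA+Acu, Model and rt-PA from low to high. Cd68 rose in Model vs Sham (log2 fold change 2.66, SE 0.36, adjusted p = 0.000463) and fell with added acupuncture (log2 fold change -2.29, SE 0.31, adjusted p = 0.00271), and against Sham the log2 fold change of Cd68 in rt-PA+Acu was 1.48 (SE 0.43, adjusted p = 0.0882). Aif1, the calcium-binding protein IBA1 that is the usual stain for microglia, moved the opposite way with 13.6, 14.5 and 11.4 CPM in Sham, 7.25, 5.24 and 6.77 in Model, 6.52, 8.32 and 7.59 under rt-PA and 12.4, 13.6 and 14.2 under rt-PA+Acu. It fell after stroke (log2 fold change -1.03, SE 0.20, adjusted p = 0.00268) and rose with added acupuncture (log2 fold change 0.84, SE 0.17, adjusted p = 0.0103), and its rt-PA+Acu libraries lay inside the Sham range. Laptm5, a lysosomal membrane protein, gave 37.4, 40.3 and 33.3 CPM in Sham, 24.2, 23.6 and 28.3 in Model, 44.5, 39.4 and 31.4 under rt-PA and 26.4, 31.7 and 21.6 under rt-PA+Acu. It fell in Model vs Sham (log2 fold change -0.53, SE 0.12, adjusted p = 0.0068), and its log2 fold change was -0.54 (SE 0.19, adjusted p = 0.0582) with added acupuncture, where it passed with DESeq2 (adjusted p = 0.0428), library size alone (adjusted p = 0.0292) and 1 fit over the 12 libraries (adjusted p = 0.0208). Mpeg1, the pore-forming perforin-2, gave 129.5, 115 and 98.2 CPM in Sham, 76.4, 83.4 and 110.5 in Model, 123, 86.9 and 97.1 under rt-PA and 123, 98.3 and 109 under rt-PA+Acu. Its groups overlapped, with a log2 fold change of -0.33 (SE 0.15, adjusted p = 0.101) in Model vs Sham, where it passed without Model replicate 3 (-0.50, adjusted p = 0.00916).

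Spi1 codes for PU.1, the lineage factor of myeloid cells, and Ikzf1 for Ikaros, a factor of lymphoid and myeloid cells. Spi1 gave 3.07, 5.36 and 3.67 CPM in Sham, 8.09, 5.24 and 9.17 in Model, 18.1, 13.3 and 7.51 under rt-PA and 4.21, 4.36 and 5.99 under rt-PA+Acu. It rose in Model vs Sham (log2 fold change 0.90, SE 0.30, adjusted p = 0.034) and fell with added acupuncture (log2 fold change -1.41, SE 0.34, adjusted p = 0.017). The first call was lost without Sham replicate 1 or 3 or Model replicate 1 or 3 (adjusted p = 0.115, 0.103, 0.0779 and 0.0828), and the other without rt-PA replicate 1 or rt-PA+Acu replicate 1 or 2 (adjusted p = 0.0546, 0.0585 and 0.0641). Ikzf1 gave 10.99, 12.3 and 12.8 CPM in Sham, 7.02, 8.37 and 10.1 in Model, 18.8, 15.3 and 10.4 under rt-PA and 10.3, 10.3 and 14.9 under rt-PA+Acu, with a log2 fold change of -0.50 (SE 0.19, adjusted p = 0.0514) in Model vs Sham, where it passed with RLE scaling (adjusted p = 0.0482), with at least 10 counts in every library (adjusted p = 0.0492) and without Model replicate 3 (adjusted p = 0.02), and -0.32 (SE 0.26, adjusted p = 0.365) with added acupuncture.

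Of the signalling genes, Rgs10 and Inpp5d fell after stroke. Rgs10, a regulator of G protein signalling that restrains microglial activation, gave 35.7, 41.8 and 34.9 CPM in Sham, 11.4, 13.3 and 16.8 in Model, 12.8, 11.8 and 13.4 under rt-PA and 24.5, 23.8 and 22.3 under rt-PA+Acu. The order of its groups was that of P2ry12, with Sham highest, rt-PA+Acu between and no overlap of either with Model or rt-PA. Rgs10 fell in Model vs Sham (log2 fold change -1.43, SE 0.16, adjusted p = 0.000215) and rose with added acupuncture (log2 fold change 0.89, SE 0.14, adjusted p = 0.00393). Inpp5d, the lipid phosphatase SHIP1, gave 47.7, 43.8 and 41.3 CPM in Sham, 17.5, 18.7 and 28.4 in Model, 34.2, 27.2 and 28.6 under rt-PA and 47.7, 28.1 and 28.7 under rt-PA+Acu. It fell in Model vs Sham (log2 fold change -1.03, SE 0.18, adjusted p = 0.00192), and with added acupuncture, where replicate 1 stood above the others, its log2 fold change was 0.21 (SE 0.22, adjusted p = 0.486). Lyn, a Src-family kinase, gave 22.8, 25.3 and 27.2 CPM in Sham, 23.5, 26.4 and 37.1 in Model, 47.1, 43.5 and 37.9 under rt-PA and 26.4, 28.3 and 35.03 under rt-PA+Acu. The log2 fold change of Lyn was 0.22 (SE 0.18, adjusted p = 0.335) in Model vs Sham, and it fell with added acupuncture (log2 fold change -0.52, SE 0.15, adjusted p = 0.0325), a call lost without rt-PA replicate 1 or 2 or rt-PA+Acu replicate 1 or 2 (adjusted p = 0.109, 0.0715, 0.102 and 0.107). Apbb1ip, an adaptor between Ras-family GTPases and integrins, gave 13.8, 12.2 and 10.6 CPM in Sham, 10.2, 8.29 and 10.5 in Model, 13.3, 14.2 and 10.98 under rt-PA and 10.1, 10.7 and 11.4 under rt-PA+Acu and passed in none of the 6 comparisons.

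The pan-leukocyte genes are shared between white blood cell types, to differing degrees. Ptprc gave 10.6, 10.03 and 8.56 CPM in Sham, 16.6, 18.3 and 23.8 in Model, 54.4, 45.04 and 29.4 under rt-PA and 12.04, 12.5 and 15.6 under rt-PA+Acu. The groups Sham, rt-PA+Acu, Model and rt-PA were separate in that order from low to high. Ptprc rose after stroke (log2 fold change 1.01, SE 0.18, adjusted p = 0.00203) and fell with added acupuncture (log2 fold change -1.68, SE 0.24, adjusted p = 0.00321). Cd53, a leukocyte tetraspanin, gave 14.6, 14.4 and 11.8 CPM in Sham, 22.1, 21.2 and 19.3 in Model, 52.2, 38.1 and 30.7 under rt-PA and 13.6, 11.1 and 11.6 under rt-PA+Acu, and its rt-PA+Acu libraries overlapped Sham. It rose in Model vs Sham (log2 fold change 0.63, SE 0.15, adjusted p = 0.00726) and fell with added acupuncture (log2 fold change -1.74, SE 0.21, adjusted p = 0.00198). Cd37, a tetraspanin most abundant in B cells, went the other way with 5.496, 6.51 and 3.41 CPM in Sham, 2.21, 2.79 and 3.06 in Model, 5.68, 3.08 and 2.799 under rt-PA and 5.72, 4.97 and 4.72 under rt-PA+Acu. Cd37 fell in Model vs Sham (log2 fold change -0.93, SE 0.31, adjusted p = 0.035), a call lost without Sham replicate 1 or 2 or Model replicate 1 or 2 (adjusted p = 0.0938, 0.137, 0.0882 and 0.0777), and its log2 fold change was 0.41 (SE 0.32, adjusted p = 0.354) with added acupuncture.

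Markers of blood-derived cells are given beside these genes. The summed level of 10 neutrophil markers was 8.496 to 14.3 CPM in Sham, 15.6 to 42.8 in Model, 50.8 to 119 under rt-PA and 11.7 to 49.6 under rt-PA+Acu. Of the list, the granule gene Mpo was at 0 counts in all 12 libraries. Lcn2, which astrocytes can also make, held most of the sum in Model and rt-PA+Acu, and without it the other 9 summed to 7.27 to 11.9 CPM in Sham, 5.11 to 17.3 in Model, 15.1 to 82.3 under rt-PA and 3.74 to 5.47 under rt-PA+Acu, where all 3 libraries lay below Sham. Monocyte markers, 9 of 10 in the table, summed to 249 to 325 CPM in Sham, 266 to 344 in Model, 465 to 932 under rt-PA and 172 to 238 under rt-PA+Acu. A large part of this sum was 1 gene: Fn1 with 48.7%, 33.4% and 43.1% in Sham, Model and rt-PA, and Vcan with 42.0% in rt-PA+Acu. Without Fn1 the other 8 summed to 121 to 173 CPM in Sham, 177 to 217 in Model and 268 to 530 under rt-PA. The neutrophil and monocyte sums were both highest in rt-PA, as were Ptprc, Cd53 and Cd68. The ranges of the whole monocyte sum in Sham and Model overlapped. Cd37 did not follow this order. Border macrophage markers, 8 of 10 in the table, summed to 11.9 to 30.5 CPM in Sham, 22.1 to 31.97 in Model, 49.4 to 84.02 under rt-PA and 15.7 to 22.6 under rt-PA+Acu. The 12 lymphocyte markers summed to 1.57 to 2.26, 3.22 to 4.43, 4.64 to 9.98 and 1.39 to 4.42 CPM in the same order, with Cd3d, Ms4a1, Cd79a and Nkg7 at 0 in all Sham libraries. The part of these cells in the changes of the pan-myeloid, pan-leukocyte and complement genes was not tested.

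With added acupuncture 4 of 6 tested neutrophil markers, 6 of 8 monocyte markers and 5 of 6 border macrophage markers fell and 0 rose, and in Model vs Sham 2 of 5, 3 of 7 and 0 of 6 rose, with 1 monocyte marker that fell. Of all genes 17% rose and 17.7% fell in the first comparison and 27.3% and 26.6% in the second. Markers that entered the first test through rt-PA alone could only fall, so the absence of rises was partly fixed by the filter. Cxcr2 had a mean of 7.85 CPM under rt-PA and 0.185 under rt-PA+Acu, and Ccr2 had 7.82 and 0.233. In rt-PA+Acu against Sham only 3 neutrophil and 5 monocyte markers were tested. Red blood cell markers had 2 of 7 genes in the table and 0 tested. Astrocyte markers, of which 8 of 10 fell and 1 rose in Model vs Sham and 9 of 10 rose with added acupuncture, moved with the homeostatic genes, as did oligodendrocyte markers after stroke (8 of 10 fell). Neuron markers summed to 8175 to 8813 CPM in Sham, 6263 to 6523 in Model, 4926 to 6187 under rt-PA and 5804 to 8800 under rt-PA+Acu, while 3 of the 10 rose and 4 fell in Model vs Sham (median log2 fold change 0.03) and 4 rose and 1 fell with added acupuncture. Camk2a, a kinase of excitatory neurons, spanned 2517 to 2847 CPM in Sham and 472 to 586 in Model, and the other 9 summed to 5522 to 6296 and 5677 to 5959. Their part in the homeostatic result was not tested.

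**Figure D4:**
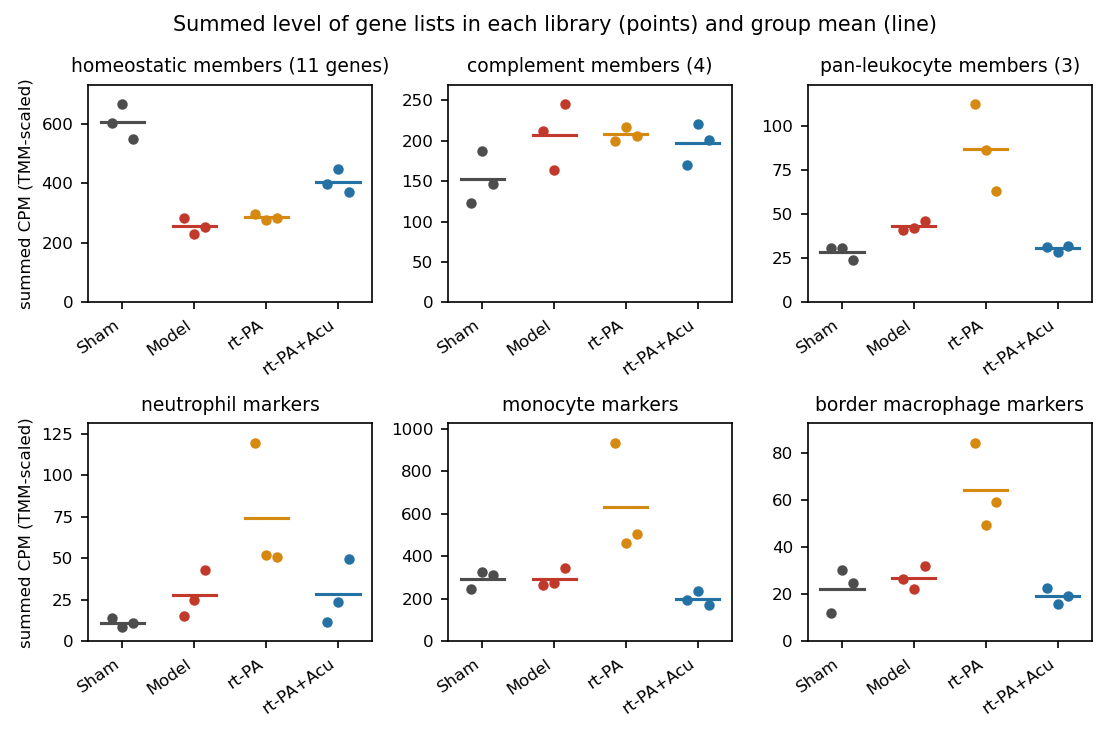
Summed level, in CPM after TMM scaling on linear axes from 0, of 3 groups of member genes (top) and 3 marker lists of blood-derived or border cells (bottom) in each library. Points are libraries and the line is the group mean. The homeostatic sum is low in Model and rt-PA, higher in rt-PA+Acu and highest in Sham, while the pan-leukocyte, monocyte and border macrophage sums are highest in rt-PA.

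The 2 comparisons Model vs Sham and rt-PA+Acu against rt-PA share no library, so their calls can be set side by side. A total of 8 genes fell after stroke and rose with added acupuncture, namely Aif1, Crybb1, P2ry12, P2ry13, Rgs10, Sall1, Siglec5 and Slco2b1. Another 6 rose after stroke and fell with added acupuncture, namely C1qc, Cd53, Cd68, Ptprc, Spi1 and Tyrobp. Crybb1 summed to 8 counts in Model and 4 under rt-PA and entered both tests only through the group where it was higher. Its calls therefore had no other possible direction. The same held for Cd68 after stroke (5 to 10 counts per Sham library) and P2ry13 with added acupuncture (6 to 11 per rt-PA library). A further 7 fell after stroke and did not pass with added acupuncture, namely Cd37, Csf1r, Cx3cr1, Inpp5d, Laptm5, Mertk and Tmem119, and C1qb and Fcgr3a rose after stroke alone. Fcer1g and Lyn fell with added acupuncture alone, and 9 genes passed in neither. No member rose in both or fell in both. How many of all genes showed each pair of calls was not counted, so these numbers do not set the members apart from other genes.

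**Figure D5:**
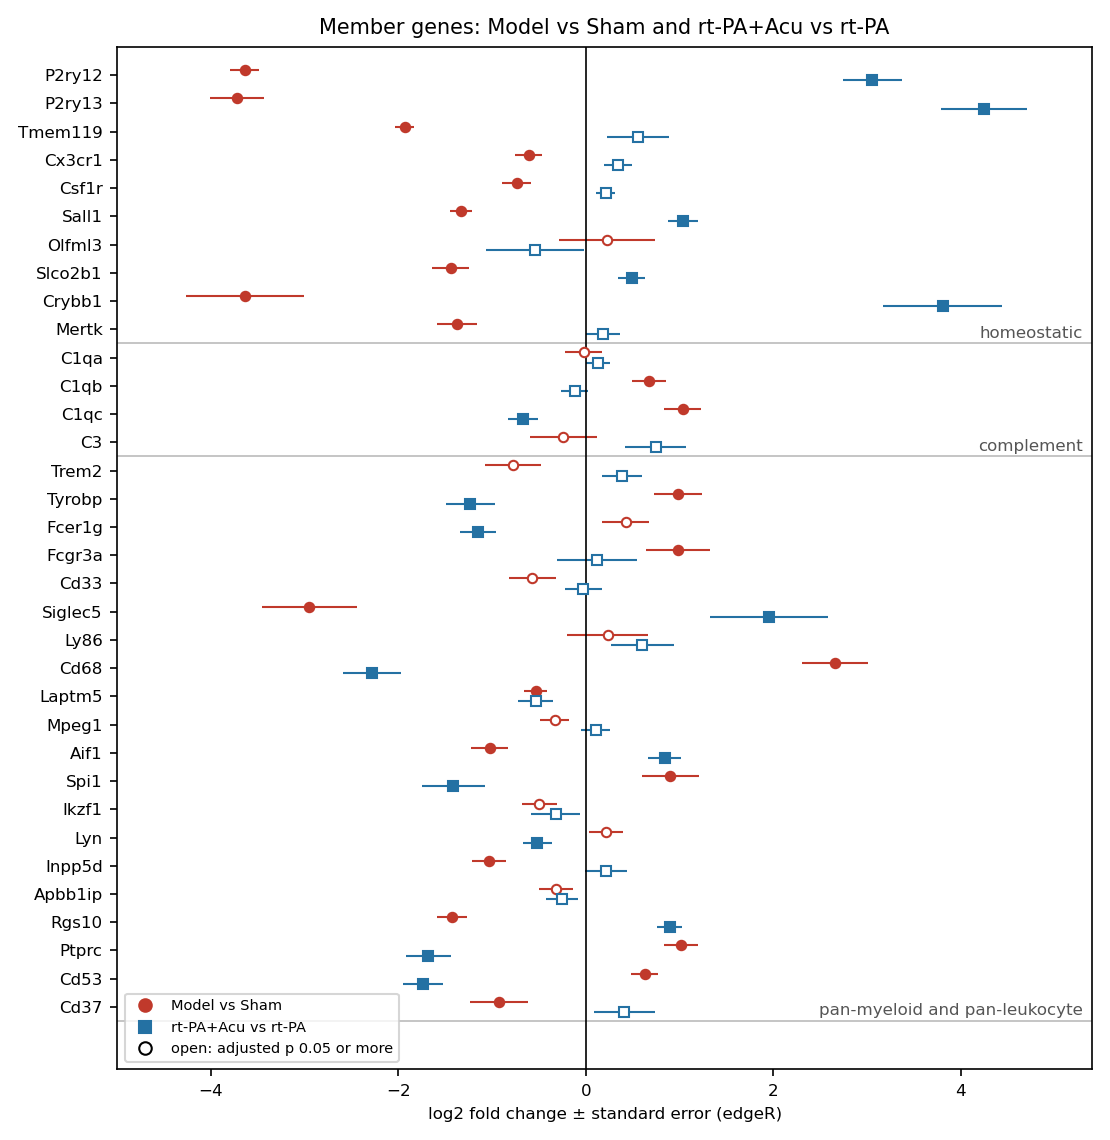
Log2 fold change with its standard error for the 34 members tested, in Model vs Sham (red circles) and rt-PA+Acu against rt-PA (blue squares), on a linear log2 axis. Filled symbols have an adjusted p under 0.05 and open symbols do not. P2ry12, P2ry13 and Crybb1 lie far to the left after stroke and far to the right with added acupuncture, and Cd68, Ptprc and Cd53 lie on the opposite sides. Crybb1 rests on few counts and was tested only through the group where it was higher.

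Late rt-PA alone moved none of the 33 members tested past the threshold. In rt-PA vs Model 0 of all genes passed in edgeR (0%), and the members' log2 fold changes ran from -1.19 to 1.38. At an unadjusted p under 0.05 there were 11 members, where 9.92% of all genes were at that level: Cd53, Ptprc, Cd68, Laptm5, Cd33, Ikzf1, Lyn, Fcer1g, C3, P2ry13 and Inpp5d. Of these 11, the log2 fold change was positive in 10. The share of all genes at that level with a positive value was not counted, so this split has no background. DESeq2 called 3 members, Ptprc (1.13, adjusted p = 0.00312), Cd53 (0.95, adjusted p = 0.0046) and Cd68 (1.12, adjusted p = 0.0292), all higher in rt-PA, where it called 1.46% of all genes. Every rt-PA library exceeded every Model library for these 3 genes.

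In rt-PA vs Sham 11 members rose and 14 fell of 34 tested, where 54.7% of all genes passed, 27.4% upward and 27.3% downward. This comparison shares its Sham libraries with Model vs Sham, so its values are set beside those and not counted as further support. Ptprc was 2.12 on the log2 scale in rt-PA vs Sham and 1.01 in Model vs Sham, Cd53 was 1.55 and 0.63, Fcer1g 1.27 and 0.42, and Lyn 0.76 and 0.22. P2ry12 was -4.10 and -3.64, and Tmem119 -1.98 and -1.93. In rt-PA vs Sham Laptm5, which fell in Model, was 0.04 (SE 0.14, adjusted p = 0.835).

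Against Sham, the rt-PA+Acu group kept 5 members lower and 2 higher. P2ry12 (log2 fold change -1.03, SE 0.24, adjusted p = 0.0483), Tmem119 (log2 fold change -1.41, SE 0.28, adjusted p = 0.0295), Mertk, Slco2b1 (log2 fold change -0.80, SE 0.16, adjusted p = 0.0339) and Rgs10 (log2 fold change -0.67, SE 0.12, adjusted p = 0.0206) were lower. C3 and Fcgr3a (log2 fold change 1.91, SE 0.39, adjusted p = 0.035) were higher. Of these 7 calls, that of C3 held under every alternative, and each of the others was lost without at least 1 library. P2ry12 was lost without any 1 Sham library (adjusted p = 0.154, 0.165 and 0.131) or rt-PA+Acu replicate 2 (adjusted p = 0.0675), and Tmem119 and Fcgr3a without any 1 Sham library (adjusted p from 0.0964 to 0.125 and from 0.11 to 0.125). Rgs10 was lost without any 1 Sham library or rt-PA+Acu replicate 2 (adjusted p from 0.0576 to 0.106), and Slco2b1 without Sham replicate 1 or 2 or rt-PA+Acu replicate 2 (adjusted p = 0.124, 0.156 and 0.0531).

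Against untreated stroke, 12 members rose and 4 fell in rt-PA+Acu against Model of 34 tested, where 34.3% of all genes passed, 17.4% upward and 16.9% downward. An absolute log2 fold change over 1 was also met by 7, against 14.5% of all genes. The 12 were 7 homeostatic genes, C3, Aif1, Rgs10, Cd33 and Cd37, and the 4 were C1qc, Tyrobp, Cd68 and Cd53. P2ry12 was 2.63 (SE 0.31, adjusted p = 0.00153), P2ry13 3.06 (SE 0.42, adjusted p = 0.00234), Sall1 1.32 (SE 0.14, adjusted p = 0.00122) and Cd53 -0.79 (SE 0.15, adjusted p = 0.00786) on the log2 scale. The count of 16 was 8 without Model replicate 1, 7 without Model replicate 2, 13 without Model replicate 3, 8 without rt-PA+Acu replicate 1 and 7 without rt-PA+Acu replicate 2. Over all genes the count went from 4411 to 2763, 2546, 4104, 2841 and 2547 in the same order. Under every alternative other than the fold threshold 6 of the 16 calls remained. The calls of Csf1r, Slco2b1 and Cd33 were also lost with library size alone (adjusted p = 0.0659, 0.0529 and 0.0642). Acupuncture without rt-PA was not part of the design.

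Ligands of these receptors were read from a list of 10. In Model vs Sham 3 rose and 4 fell, and with added acupuncture 3 rose and 3 fell, against 54% and 34.8% of all genes that passed. Tgfb1, a cytokine on which adult microglia depend, spanned 7.51 to 9.72 CPM in Sham, 41.97 to 48.7 in Model, 34.6 to 39.9 under rt-PA and 6.397 to 11.1 under rt-PA+Acu. It rose after stroke (log2 fold change 2.39, SE 0.14, adjusted p = 1.32e-05) and fell with added acupuncture (log2 fold change -2.16, SE 0.21, adjusted p = 0.00118). The CSF1 receptor ligand Il34 did the reverse (-0.82, adjusted p = 0.00163, and 0.77, adjusted p = 0.0153), while the other ligand Csf1 was 0.14 (SE 0.20, adjusted p = 0.595) after stroke and fell with added acupuncture (log2 fold change -1.07, SE 0.26, adjusted p = 0.017). Cx3cl1, the neuronal ligand of Cx3cr1, spanned 509 to 598, 337 to 377, 196 to 211 and 269.8 to 431 CPM over the groups in that order, fell after stroke (log2 fold change -0.66, SE 0.09, adjusted p = 0.000599) and rose with added acupuncture (log2 fold change 0.89, SE 0.18, adjusted p = 0.00999). Gas6, a bridging ligand of Mertk, also fell (log2 fold change -0.98, SE 0.16, adjusted p = 0.00121) and rose (log2 fold change 0.63, SE 0.13, adjusted p = 0.0109).

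Of 36 further complement genes 23 were tested, and 5 rose and 5 fell in Model vs Sham while 4 rose and 7 fell with added acupuncture, where 54% and 34.8% of all genes passed. Itgam and Itgax, the alpha chains of complement receptors that bind C3 fragments and are carried by phagocytes, rose after stroke. Itgam spanned 7.25 to 17.1 CPM in Sham, 62.1 to 93.9 in Model, 90.01 to 126 under rt-PA and 27.5 to 62.95 under rt-PA+Acu (log2 fold change 2.45, SE 0.30, adjusted p = 0.000311 in Model vs Sham). Itgax spanned 0 to 0.485, 19.3 to 30.8, 29.9 to 32.9 and 1.26 to 5.76 CPM in the same order, and it fell with added acupuncture (log2 fold change -3.27, SE 0.45, adjusted p = 0.00273), as did the shared beta chain Itgb2 (log2 fold change -1.73, SE 0.26, adjusted p = 0.00358). Vtn, the vitronectin gene, fell after stroke (log2 fold change -2.60, SE 0.23, adjusted p = 6.78e-05) and rose with added acupuncture (log2 fold change 1.97, SE 0.29, adjusted p = 0.0036).

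Of 30 further microglial signature genes, 24 were tested in Model vs Sham, where 6 rose and 10 fell (median log2 fold change -0.24), and 23 with added acupuncture, where 5 rose and 7 fell (median -0.03), against 54% and 34.8% of all genes. Selplg, the P-selectin ligand of the microglial signature, fell after stroke (log2 fold change -3.04, SE 0.21, adjusted p = 2.57e-05) and spanned 43.1 to 66.1 CPM in Sham, 5.496 to 8.18 in Model, 7.96 to 12.3 under rt-PA and 12.9 to 35.8 under rt-PA+Acu. Mef2c, a transcription factor of microglia and also of neurons, fell after stroke (log2 fold change -1.67, SE 0.11, adjusted p = 1.93e-05) and rose with added acupuncture (log2 fold change 1.77, SE 0.16, adjusted p = 0.00112). Runx1, a haematopoietic factor, rose after stroke (log2 fold change 3.60, SE 0.31, adjusted p = 6.29e-05) and fell with added acupuncture (log2 fold change -2.52, SE 0.34, adjusted p = 0.00271).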

How the data were processed

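Poly(A) RNA from rat cortex was sequenced in 12 libraries as read pairs of 150 bases. The authors aligned the reads to mRatBN7.2 with STAR and deposited raw counts per gene symbol, without normalization or pooling. The paper names Salmon 1.9.0 with an Ensembl annotation for the counting, and the submitters' processing notes list STAR 2.7.10a, featureCounts 2.0.1 and Salmon 1.9.0. Use of the molecular identifiers in the adapters and the strand setting are not given in the sources used here, so counting intervals cover counting error only. The labels do not say whether libraries of a group came from separate rats, so p-values measure the spread between these libraries.

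In edgeR 4.0.16 (R 4.3.3), genes were filtered with filterByExpr and scaled by TMM (factors 0.9488 to 1.078). For each comparison its 6 libraries alone entered the quasi-likelihood test, and p-values were adjusted over all genes tested (Benjamini-Hochberg). Levels are CPM with TMM factors over the 12 libraries. SE is the log2 fold change over the root of F. The study's methods use DESeq2, an alternative here (1.42.0), beside RLE scaling, library size alone, no low-count filter, a minimum of 10 counts per library, 1 fit over the 12 libraries, a replicate block, a fold threshold and leaving out each library. The fit was tested on simulated data with 200 genes changed 4-fold. Replicate libraries of a group differed by more than sampling noise, so none was counted as a duplicate. All 36 members are named, those of at least 3 CPM in a group mean with values per library, and of other lists at most the 3 smallest adjusted p per direction in Model vs Sham or rt-PA+Acu against rt-PA, plus ligands of named receptors. The members and lists, and their division by role, were chosen with earlier results of these data known. Promoters come from RefSeq (GRCr8), another build than that of the counts. The promoters and motif shown, the cut of the windows to the bases before the start, which leaves out transcribed bases, the rule that compares single injured libraries with the Sham range, and the marker sums without Lcn2, Fn1 or Camk2a were chosen after the data were seen. Plots were drawn with matplotlib 3.10.9 in Python 3.11.15.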

Additional observations from a re-analysis of the deposited data

How the results depend on the processing

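Over the alternatives of the 6 comparisons 2635 member values were recomputed, of which 2403 kept their direction and side of the threshold, 122 lost and 33 gained a call, 77 that passed under neither setting changed sign and 0 calls reversed. Under the alternatives that gave a value, other than the fold threshold, 20 of 23 calls were kept in Model against Sham, 11 of 16 in rt-PA+Acu against rt-PA, 22 of 25 in rt-PA against Sham, 1 of 7 in rt-PA+Acu against Sham and 6 of 16 in rt-PA+Acu against Model. The minimum of 10 counts in every library removed 3, 2, 4, 0 and 0 of these kept genes, which had no value under it. Asking also for an absolute log2 fold change over 1 left 14 members in Model against Sham and 7 in rt-PA+Acu against Model. DESeq2 called 3 in rt-PA against Model. Leaving out single libraries gave 20 to 23 calls in Model against Sham, 0 in rt-PA against Model, 12 to 17 in rt-PA+Acu against rt-PA, 23 to 26 in rt-PA against Sham, 1 to 9 in rt-PA+Acu against Sham and 7 to 17 in rt-PA+Acu against Model.

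Groups share replicate numbers, but in no comparison did the deviations of all 3 same-numbered pairs correlate above 0.1 (-0.295 to 0.196 over all comparisons, and 0.125, 0.0652 and 0.0555 in Model against Sham), so the numbers were not taken to pair animals. With the replicate block 20 members passed in Model against Sham, 0 in rt-PA against Model, 15 in rt-PA+Acu against rt-PA, 25 in rt-PA against Sham, 4 in rt-PA+Acu against Sham and 8 in rt-PA+Acu against Model. Scaling by library size alone moved the median log2 fold change of all genes by 0.146 in rt-PA against Sham, to 0.149. DESeq2 called 1435 genes in rt-PA+Acu against Sham where edgeR called 651. At this depth Hpgds and Crybb1 rested on few counts, and a change of such genes may not be detectable.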

Other observations

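A list of 20 genes known to be gained by microglia around damaged tissue was counted in the same way. In Model vs Sham 9 rose and 2 fell of 17 tested, where 27.3% of all genes rose and 26.6% fell. With added acupuncture 1 rose and 11 fell of 18, where 17% rose and 17.7% fell. Lgals3, a galectin of phagocytes, rose after stroke (log2 fold change 5.34, SE 0.18, adjusted p = 3.41e-06), as did the tetraspanin Cd63 (log2 fold change 2.25, SE 0.11, adjusted p = 6.02e-06) and the lysosomal glycoprotein Gpnmb (log2 fold change 3.66, SE 0.20, adjusted p = 1.07e-05). Clec7a, a pattern receptor for beta-glucans, fell with added acupuncture (log2 fold change -4.76, SE 0.52, adjusted p = 0.00149), as did the inhibitory receptor Lilrb4 (log2 fold change -5.45, SE 0.66, adjusted p = 0.00195) and Cd63 (log2 fold change -1.43, SE 0.23, adjusted p = 0.00492). Clec7a spanned 7.73 to 19.8 CPM under rt-PA and 0.253 to 0.823 under rt-PA+Acu, and Lilrb4 4.09 to 10.7 and 0.0749 to 0.261. Clec7a and Lilrb4 were thus near the floor in rt-PA+Acu and entered the test through rt-PA. They could only fall, and the size of their fall is uncertain. Apoe, a lipid carrier that astrocytes also make, ran against most of the list. It spanned 1898 to 2200 CPM in Sham, 564 to 987 in Model, 619 to 726 under rt-PA and 878 to 1219 under rt-PA+Acu, fell after stroke (log2 fold change -1.53, SE 0.20, adjusted p = 0.000412) and rose with added acupuncture (log2 fold change 0.61, SE 0.15, adjusted p = 0.0209). In rt-PA+Acu against Sham 6 of 16 genes of the list were higher and 2 lower, where 1.7% of all genes were higher and 3.4% lower. Apoe was among the 2 (log2 fold change -1.04, SE 0.15, adjusted p = 0.0116). Monocytes carry many of these genes, and the part of the monocyte markers given above in these values was not tested.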
